A study of Homo sapiens with 12 samples.

Results

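The genes described here are 8 regulators of apoptosis, taken by symbol from the 58735 gene entries counted in each library. They are the death ligand TNFSF10 (TRAIL), its receptors TNFRSF10A (DR4) and TNFRSF10B (DR5), the receptor FAS, the initiator caspases CASP8 and CASP9, and the inhibitors CFLAR (c-FLIP) and XIAP. All 8 were found and all 8 passed the filter on low counts, which left 17780 genes to test. The mRNA sequenced came from MDA-MB-468, an established triple-negative breast cancer line. Its 12 libraries form 4 groups of 3 with the letters A, B and C. The groups were a vehicle (DMSO), docetaxel at 10 nM for 8 h, docetaxel at 10 nM for 24 h, and tazemetostat at 5 µM with ipatasertib at 5 µM for 24 h (the combination). Docetaxel stabilises microtubules, tazemetostat inhibits the histone methyltransferase EZH2 and ipatasertib inhibits the kinase AKT. Docetaxel was given in 10 cm plates. Cells of the targeted arm spent 5 days in tazemetostat or DMSO first and were then dosed in 6 cm plates with 2% FBS. Plate, serum and hours are not stated for the DMSO libraries, nor the serum of the docetaxel cultures, so these cannot be told apart from the treatments. No library was labelled as having either targeted drug alone.

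In the extrinsic pathway of apoptosis, TNFSF10 on one cell binds TNFRSF10A or TNFRSF10B on another, and FAS ligand binds FAS. The bound receptors gather the adaptor FADD and procaspase-8 into a death-inducing complex in which caspase-8 activates itself. CFLAR resembles caspase-8, enters the same complex and, in most settings, holds it back. In the intrinsic pathway, cytochrome c from mitochondria assembles APAF1 and caspase-9 into the apoptosome, while XIAP binds and inhibits caspase-9. Much of this control acts on proteins, through cleavage, assembly and degradation, and mRNA counts do not measure it.

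Total counts lay between 29820617 and 45807059 per library. Libraries of one group differed by more than sampling noise (the chi-square divided by its degrees of freedom ran from 3.19 to 15.6), and the biological coefficient of variation was 5.59%. The labels do not say that A, B and C were separate cultures, so the p-values reflect how far these libraries vary, and that variation may be technical. Mitochondrial genes held 4.001% to 4.48% of counts in DMSO and 7.71% to 9.30% in the combination. With docetaxel they held 8.20% to 8.997% at 8 h and 5.002% to 7.53% at 24 h. Their part in the results was not tested. The epithelial genes EPCAM and KRT5 were present in DMSO at 332 and 1624 CPM (the read count normalised to library size with TMM factors), and the receptor genes ESR1, PGR and ERBB2 were at 1.86, 0.00985 and 101 CPM. The 5 immune markers summed to between 22.9 and 54.2 CPM, nearly all CD14, and MS4A1 was at 0 in every library. The 4 endothelial markers summed to between 21.7 and 24.2 CPM in DMSO and between 38.8 and 40.0 in the combination. With docetaxel they summed to between 11.8 and 17.7 at 8 h and between 13.5 and 14.9 at 24 h. Nearly all of that sum was KDR. PECAM1 had a mean of at most 0.228 CPM in any group. The 5 fibroblast markers summed to between 21.1 and 22.4 CPM in DMSO and between 17.6 and 19.6 in the combination. Their range was 12.3 to 13.6 CPM at 8 h of docetaxel and 16.5 to 19.7 at 24 h. COL1A1 made up nearly all of the fibroblast sum.

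Promoter sequence is shown for the member that changed most at the mRNA level among the well counted ones, TNFSF10, and for CASP8 and CFLAR, related genes that lie close together on chromosome 2 and moved in opposite directions under docetaxel. From RefSeq (GRCh38.p14), 16 promoter windows were used, for 6 of the 8 members. None was for TNFRSF10A or TNFRSF10B, so the promoters of these receptors were not searched. Each window below holds the 250 bases before a start site, 5′ to 3′ on the strand of the gene, with matches to a searched motif in capitals. The first is TNFSF10 at chr3:172523431-172523680 (minus strand), with a TATA box (TATAAA) at position -31. The second is the most upstream of 3 CASP8 windows, at chr2:201233213-201233462 (plus strand), and the third is the most upstream of 4 CFLAR windows, at chr2:201118466-201118715 (plus strand). These hold an SP1 GC box (GGGCGG) at -96 and -101.
TNFSF10: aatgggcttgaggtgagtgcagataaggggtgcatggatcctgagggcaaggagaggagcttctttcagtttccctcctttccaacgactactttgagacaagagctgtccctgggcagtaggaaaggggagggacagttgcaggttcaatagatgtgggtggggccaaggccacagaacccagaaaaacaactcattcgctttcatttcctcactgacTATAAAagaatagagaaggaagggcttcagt
CASP8: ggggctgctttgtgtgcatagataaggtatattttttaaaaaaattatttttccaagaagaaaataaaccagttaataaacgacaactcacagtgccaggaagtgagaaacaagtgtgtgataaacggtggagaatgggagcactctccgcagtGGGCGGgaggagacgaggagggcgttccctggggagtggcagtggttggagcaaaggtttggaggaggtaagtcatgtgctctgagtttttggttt
CFLAR: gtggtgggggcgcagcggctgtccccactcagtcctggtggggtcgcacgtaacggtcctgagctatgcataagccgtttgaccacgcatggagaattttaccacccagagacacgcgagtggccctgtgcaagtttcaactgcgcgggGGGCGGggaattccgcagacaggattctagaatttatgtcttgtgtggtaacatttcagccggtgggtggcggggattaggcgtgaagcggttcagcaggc

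Letters were searched on both strands. They were TGTTTAC for FOXO, TGANTCA for AP-1, GGGCGG for the GC box, TTGCATCA for CHOP-ATF4 and TATAAA for the TATA box. For NF-kB a single form of the site was searched, which is narrower than the general consensus. None of the motifs was masked where it overlapped another. A GC box stood in 10 of the 16 windows, against 42.6% of 35116 promoters, and a TATA box in 2 windows, against 10.7%. Windows of the same gene can overlap and hold the same box, as for FAS and XIAP, so the 16 windows are not independent. AP-1 letters stood in 3 windows (6.57% of promoters), 1 each in FAS, CASP8 and CFLAR. The FOXO, CHOP-ATF4 and NF-kB letters stood in 0 of the 16, and in 2.98%, 0.772% and 1.73% of promoters. For NF-kB these values cover only the form searched. Whether the windows, such as that of CFLAR shown above, hold other forms of the NF-kB site was not tested. The GC content was 49.6% in the TNFSF10 window, 45.6% in that of CASP8 and 58.8% in that of CFLAR, with a median of 58% over promoters. A match is a run of letters, and no binding was measured.

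**Figure D1:**
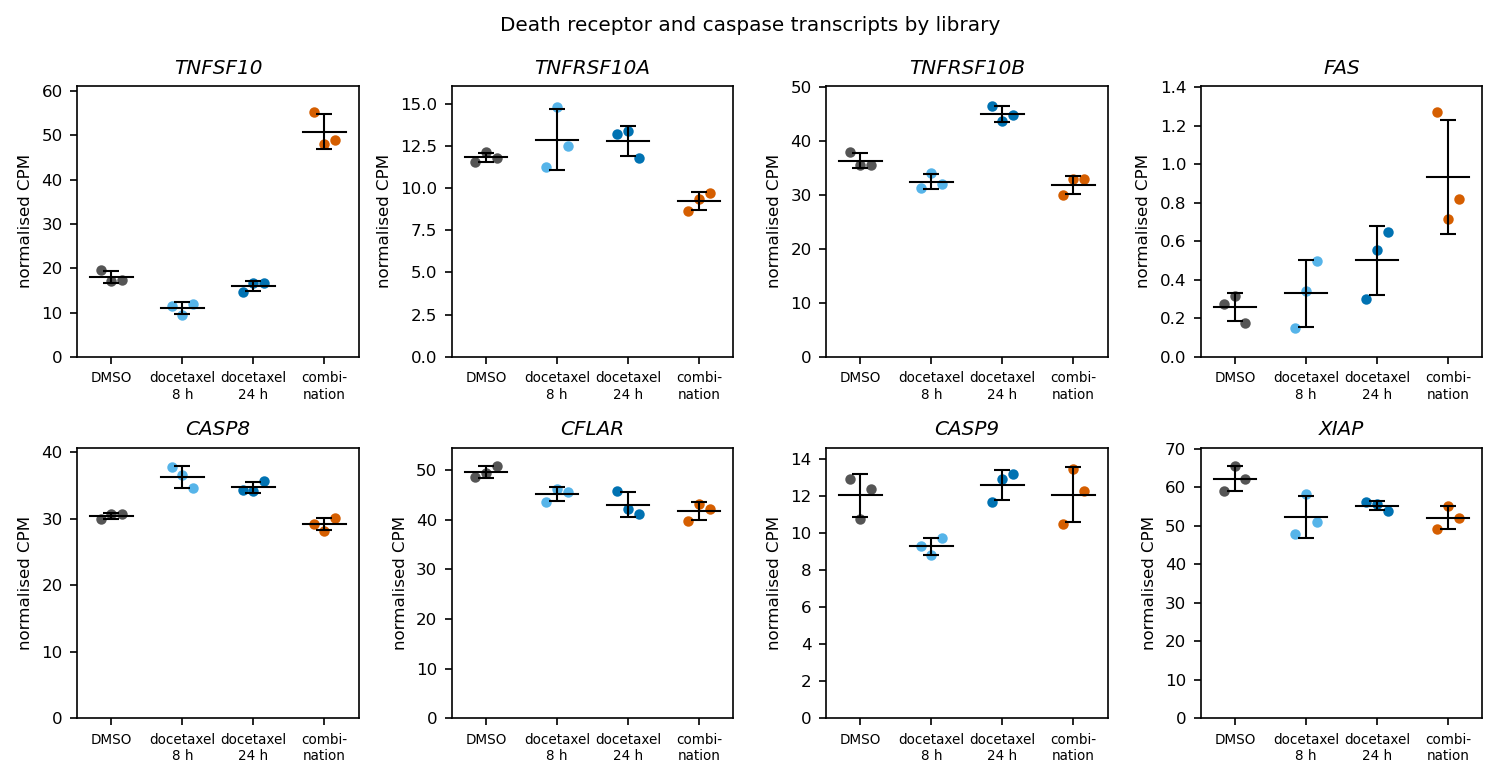
Normalised read counts in CPM (vertical axes, linear and starting at 0, each panel with its own scale) of the 8 genes in each of the 12 libraries, by group (horizontal axis). Points are libraries and lines are group means with the SD over 3 libraries. TNFSF10 and FAS stand highest in the combination, and TNFRSF10B stands highest at 24 h of docetaxel.

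TNFSF10 (chromosome 3, 172505508 to 172523507), the TRAIL ligand itself, gave the widest span of the well counted members: it fell at 8 h of docetaxel and rose in the combination. Libraries A, B and C had 19.6, 17.1 and 17.3 CPM in DMSO and 11.4, 9.46 and 12.02 CPM at 8 h of docetaxel. They had 14.7, 16.6 and 16.7 CPM at 24 h and 55.4, 48.2 and 48.9 CPM in the combination. Every combination library lay above every other library, and every 8 h library lay below every other. In edgeR's quasi-likelihood test, adjusted over all genes by Benjamini-Hochberg, the log2 fold change against DMSO was -0.72 ± 0.09 (SE) at 8 h (adjusted p = 7.39e-07) and 1.49 ± 0.08 in the combination (adjusted p = 2.33e-13), a 2.82-fold rise. At 24 h the value was -0.17 ± 0.08 (adjusted p = 0.110). That difference did not pass, although the 24 h libraries did not overlap those of DMSO. The 24 h level was 0.55 ± 0.09 above the 8 h level (adjusted p = 4.74e-05). The combination exceeded docetaxel 3.17-fold at 24 h (adjusted p = 4.11e-14) and 4.65-fold at 8 h (adjusted p = 4.51e-16). All of these calls held in each of the 12 alternative analyses of their comparison. The endothelial marker sum given above, nearly all KDR, was lowest with docetaxel and highest in the combination. From 8 h to 24 h of docetaxel TNFSF10 rose, while that sum ran from 11.8 to 17.7 CPM at 8 h and from 13.5 to 14.9 at 24 h. The part of these markers in the TNFSF10 result was not tested.

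The TRAIL receptors did not move together. TNFRSF10B (chromosome 8, 23020133 to 23069179), which carries a death domain and is the better counted of the pair, was highest at 24 h of docetaxel. Its libraries A, B and C had 38.0, 35.5 and 35.7 CPM in DMSO and 31.3, 34.0 and 32.1 CPM at 8 h. They had 46.6, 43.8 and 44.8 CPM at 24 h and 30.004, 32.9 and 32.9 CPM in the combination. The 24 h libraries stood above the rest, and those of 8 h and of the combination overlapped each other below DMSO. The log2 fold change against DMSO was 0.31 ± 0.06 at 24 h (adjusted p = 0.000136), -0.16 ± 0.06 at 8 h (adjusted p = 0.0235) and -0.19 ± 0.06 in the combination (adjusted p = 0.00725), by edgeR's quasi-likelihood test. The 8 h call was lost when any DMSO library or docetaxel 8 h library A or C was left out (adjusted p from 0.0608 to 0.209), and the combination call was lost without DMSO library A (adjusted p = 0.0578). From 8 h to 24 h of docetaxel TNFRSF10B rose by 0.47 ± 0.06 (adjusted p = 9.69e-07), and the combination lay 0.50 below docetaxel at 24 h (a log2 difference of -0.50 ± 0.06, adjusted p = 9.60e-08).

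TNFRSF10A (chromosome 8, 23190452 to 23225126), the other TRAIL receptor with a death domain, was lower in the combination than in every other group. Libraries A, B and C had 11.6, 12.1 and 11.8 CPM in DMSO, 11.3, 14.8 and 12.5 at 8 h, 13.2, 13.4 and 11.8 at 24 h, while the combination had 8.67, 9.33 and 9.71. The first 3 groups overlapped, and the combination lay below them all. By edgeR's quasi-likelihood test the combination differed from DMSO by -0.36 ± 0.10 (adjusted p = 0.00274), from docetaxel at 24 h by -0.47 ± 0.10 (adjusted p = 0.000185) and from docetaxel at 8 h by -0.48 (adjusted p = 0.000145). Docetaxel gave 0.12 ± 0.09 at 8 h (adjusted p = 0.299) and 0.11 ± 0.09 at 24 h (adjusted p = 0.353), neither past the threshold. Without the strand setting, reads of opposite genes may be included: TNFRSF10A shares 266 exon bases with AC100861.1, which had 644, 500, 732 and 399 counts in DMSO, 8 h, 24 h and the combination. TNFRSF10B shares 67 exon bases with RHOBTB2, which had 1909, 1465, 1688 and 2793 counts in the same order.

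The balance of the pair can be read as the ratio of TNFRSF10B to TNFRSF10A within a library, in CPM and not corrected for length. It was 3.08 ± 0.183 (SD, n = 3) in DMSO, 2.55 ± 0.246 at 8 h, 3.53 ± 0.269 at 24 h and 3.46 ± 0.0686 in the combination. The 8 h libraries (2.29 to 2.78) lay below all others, those of DMSO reached from 2.93 to 3.28, and those of 24 h from 3.27 to 3.80. In the combination both receptors were lower than in DMSO, while at 24 h of docetaxel the rise of TNFRSF10B alone passed the test.

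The decoy receptors of TRAIL, which bind the ligand without a working death domain, were close to absent at this depth. TNFRSF10C had 2, 3, 1 and 6 counts over the 3 libraries of DMSO, 8 h, 24 h and the combination, and TNFRSF10D had 1, 0, 4 and 3. A count of 3 corresponds to between 0.0646 and 0.107 CPM in a library. Neither gene was tested. TNFRSF11B (osteoprotegerin), a secreted receptor that binds RANKL and also TRAIL, went from 0.589 ± 0.0802 CPM (SD, n = 3) in DMSO to 5.52 ± 0.866 in the combination (log2 fold change 3.20 ± 0.19, adjusted p = 1.35e-12 by edgeR's quasi-likelihood test). It did not pass with docetaxel, at 0.23 ± 0.25 (adjusted p = 0.478) and 0.55 ± 0.24 (adjusted p = 0.0639).

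FAS (chromosome 10, 88990582 to 89015785), the receptor of FAS ligand, was barely transcribed in all groups and highest in the combination. Libraries A, B and C held 12, 10 and 6 counts in DMSO, 5, 11 and 14 at 8 h, and 10, 18 and 30 at 24 h, while the combination held 41, 22 and 25. These are 0.257 ± 0.0719, 0.329 ± 0.176, 0.5004 ± 0.179 and 0.933 ± 0.296 CPM (SD, n = 3). DMSO and docetaxel overlapped, and all 3 combination libraries lay above them. By edgeR's quasi-likelihood test the combination was 1.85 ± 0.40 above DMSO (adjusted p = 0.000363) and 1.53 ± 0.40 above docetaxel at 8 h (adjusted p = 0.00177), and both calls held in every alternative. Its margin over docetaxel at 24 h, 0.87 ± 0.36 (adjusted p = 0.0384), was lost with DESeq2 (adjusted p = 0.109) and when Combo A, Combo C, docetaxel 24 h A or docetaxel 24 h B was left out (adjusted p = 0.233, 0.0502, 0.164 and 0.0605). Docetaxel at 24 h stood at 0.98 ± 0.43 against DMSO (adjusted p = 0.0706), which passed only without its library A (1.22, adjusted p = 0.0315). ACTA2 lies on the opposite strand and shares 380 exon bases with FAS. It had 18, 7, 11 and 31 counts over the libraries of DMSO, 8 h, 24 h and the combination, against 28, 30, 58 and 88 for FAS. FAS ligand (FASLG) had 0 counts in all 12 libraries, which allows at most 0.0646 to 0.107 CPM in each.

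CASP8 (chromosome 2, 201233443 to 201287711), the initiator caspase of the death receptors, was higher with docetaxel at both times. Libraries A, B and C had 29.9, 30.6 and 30.7 CPM in DMSO and 37.8, 36.5 and 34.5 CPM at 8 h. They had 34.3, 34.1 and 35.7 CPM at 24 h and 29.3, 28.2 and 30.1 CPM in the combination. Every docetaxel library lay above every other library. The log2 fold change against DMSO was 0.25 ± 0.06 at 8 h (adjusted p = 0.000605) and 0.19 ± 0.06 at 24 h (adjusted p = 0.00745), by edgeR's quasi-likelihood test. With scaling by library totals alone the 8 h value was 0.10 (adjusted p = 0.148), while the median of all genes moved from -0.02 to -0.18. The combination stood at -0.06 ± 0.06 against DMSO (adjusted p = 0.367), and lay below docetaxel at 24 h by a log2 difference of -0.25 ± 0.06 (adjusted p = 0.000449) and at 8 h by -0.31 ± 0.06 (adjusted p = 3.42e-05).

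CFLAR (chromosome 2, 201116104 to 201176687), the caspase-8-like inhibitor, was lower than in DMSO in each treated group. Its libraries had 48.5, 49.4 and 50.9 CPM in DMSO, 43.5, 46.2 and 45.6 at 8 h, and 45.8, 42.2 and 41.0 at 24 h, while the combination had 39.7, 43.2 and 42.2. All 9 treated libraries lay below the 3 of DMSO, and the treated groups lay close together. The log2 fold change was -0.21 ± 0.06 at 24 h (adjusted p = 0.00419) and -0.25 ± 0.06 in the combination (adjusted p = 0.000479), by edgeR's quasi-likelihood test, and both calls held in every alternative. At 8 h it was -0.14 ± 0.06 (adjusted p = 0.0488), which was lost in 8 of 12 alternatives: without any 1 of the DMSO libraries, without docetaxel 8 h A or C, without the filter on low counts, with DESeq2 and with its size factors (adjusted p from 0.0673 to 0.255). Differences between the treated groups did not pass. The antisense gene CFLAR-AS1 shares 777 exon bases and had 9 to 19 counts per group, against 3907 to 5382 for CFLAR.

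Because CFLAR competes with caspase-8 for a place in the complex, their ratio was taken in each library, in CPM and not corrected for length. The ratio of CASP8 to CFLAR was 0.614 ± 0.00875 (SD, n = 3) in DMSO, 0.701 ± 0.0428 in the combination, and with docetaxel 0.805 ± 0.0567 at 8 h and 0.810 ± 0.0600 at 24 h. DMSO libraries lay between 0.604 and 0.621 and combination libraries between 0.653 and 0.737, so each treated group lay above DMSO. With docetaxel the numerator was higher and the denominator lower, while in the combination only the fall of CFLAR passed the test. CASP10, the other caspase that binds FADD and lies between these genes, did not follow CASP8. It went from 16.0 ± 0.281 CPM (SD, n = 3) in DMSO to 9.51 ± 0.731 at 8 h, 13.5 ± 0.318 at 24 h and 12.1 ± 0.531 in the combination, with log2 fold changes of -0.75 ± 0.08, -0.24 ± 0.07 and -0.41 ± 0.08 (edgeR adjusted p = 5.41e-08, 0.0121 and 6.71e-05). The 24 h call was lost without DMSO library B (adjusted p = 0.0529).

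**Figure D2:**
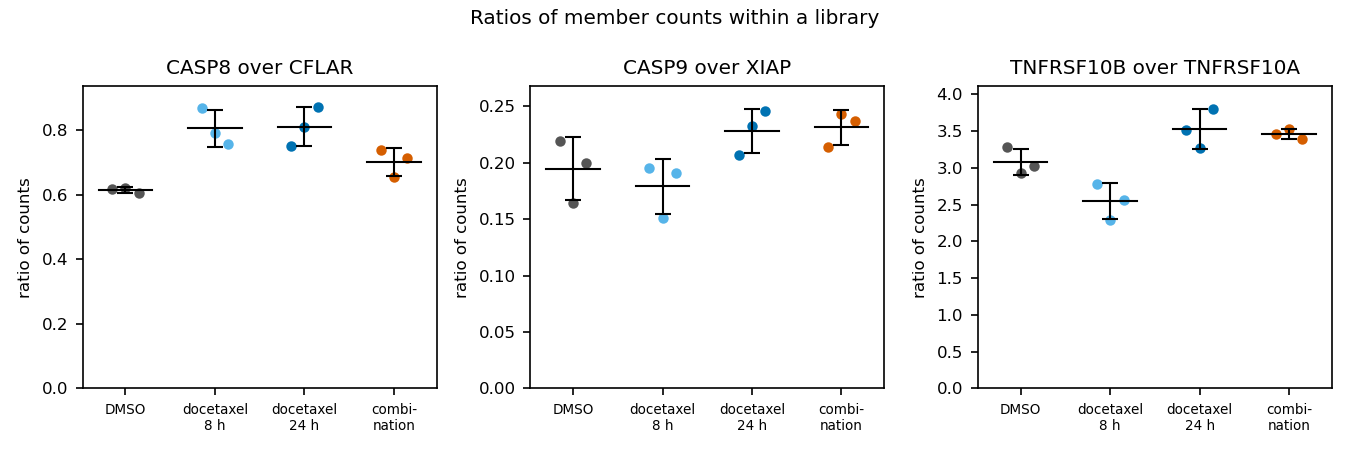
Ratios of CPM within each library (vertical axes, linear, no unit) for CASP8 over CFLAR, CASP9 over XIAP and TNFRSF10B over TNFRSF10A, by group (horizontal axis). Points are libraries and lines are group means with the SD over 3 libraries. The CASP8 to CFLAR ratio is lowest in the 3 DMSO libraries, at 0.604 to 0.621.

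CASP9 (chromosome 1, 15490832 to 15526534), the caspase of the apoptosome, was lower at 8 h of docetaxel than in the other groups. Libraries A, B and C had 12.9, 10.8 and 12.4 CPM in DMSO, 9.33, 8.81 and 9.73 at 8 h, and 11.7, 12.9 and 13.2 at 24 h, while the combination had 10.5, 13.4 and 12.3. The 8 h libraries lay below all others, and the remaining groups overlapped. The log2 fold change was -0.38 ± 0.10 at 8 h (adjusted p = 0.00272 by edgeR's quasi-likelihood test), which held in all 12 alternatives. The values at 24 h and in the combination were 0.07 ± 0.09 (adjusted p = 0.614) and 0.00 within rounding (adjusted p = 0.999). The rise from 8 h to 24 h was 0.44 ± 0.10 (adjusted p = 0.00101), and the combination lay 0.38 ± 0.10 above docetaxel at 8 h (adjusted p = 0.00185).

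XIAP (chromosome X, 123859724 to 123913979), which inhibits caspase-9, had the highest CPM of the 8 in DMSO and was lower in each treated group. Libraries A, B and C had 58.9, 65.4 and 62.2 CPM in DMSO, 47.8, 58.2 and 50.9 at 8 h, and 56.3, 55.6 and 53.8 at 24 h, while the combination had 49.1, 55.2 and 51.9. All treated libraries lay below those of DMSO, and the treated groups overlapped each other. By edgeR's quasi-likelihood test the log2 fold change was -0.25 ± 0.06 at 8 h (adjusted p = 0.00286) and -0.25 ± 0.06 in the combination (adjusted p = 0.00156). At 24 h it was -0.17 ± 0.06 (adjusted p = 0.0352), a call that was lost without DMSO B, DMSO C, docetaxel 24 h B or docetaxel 24 h C (adjusted p = 0.191, 0.0994, 0.0633 and 0.116). The ratio of CASP9 to XIAP was 0.195 ± 0.0280 (SD, n = 3) in DMSO, 0.179 ± 0.0243 at 8 h, 0.229 ± 0.0195 at 24 h and 0.231 ± 0.0158 in the combination. Its DMSO libraries overlapped those of each treated group.

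**Figure D3:**
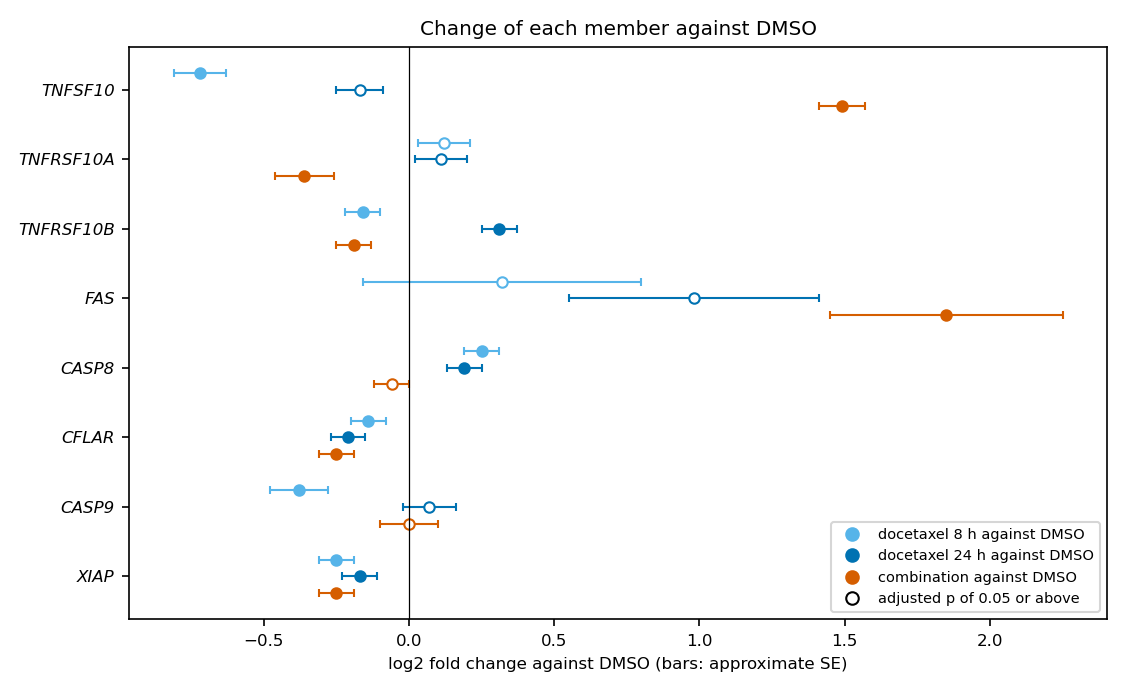
Log2 fold changes of the 8 genes (horizontal axis) in the 3 comparisons with DMSO, which share the 3 DMSO libraries. Bars are ± 1 approximate SE and filled symbols passed an adjusted p under 0.05 in edgeR's quasi-likelihood test. FAS (1.85) and TNFSF10 (1.49) in the combination are the largest values.

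Counted over the members, 6 of 8 changed at 8 h of docetaxel, CASP8 upward and TNFRSF10B, TNFSF10, CASP9, CFLAR and XIAP downward. Among all genes tested 47.3% changed, 22.5% upward and 24.8% downward. At 24 h 4 members changed, TNFRSF10B and CASP8 upward and CFLAR and XIAP downward, with 42.9% of all genes called (20.2% upward, 22.7% downward). In the combination 6 changed, TNFSF10 and FAS upward and TNFRSF10A, TNFRSF10B, CFLAR and XIAP downward, with 62.8% of all genes called (31.4% in each direction). Between the docetaxel times TNFRSF10B, TNFSF10 and CASP9 rose and none fell, against a background of 34.9% (16.6% upward, 18.3% downward). Against docetaxel at 24 h the combination had TNFSF10 and FAS higher and TNFRSF10A, TNFRSF10B and CASP8 lower, with 63.8% of all genes called (32.1% upward, 31.7% downward). Against docetaxel at 8 h it had TNFSF10, FAS and CASP9 higher and TNFRSF10A and CASP8 lower, with 66.4% called (34.3% upward, 32.1% downward). With so many genes called, these shares of 8 members say little about the set as a whole. The median log2 fold change of the members was -0.15, 0.09 and -0.12 at 8 h, 24 h and in the combination, beside -0.02, 0.01 and 0.01 over all genes.

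In the order of group levels, neighbours often could not be told apart. TNFSF10 ran from 8 h through 24 h and DMSO to the combination, with 24 h and DMSO not separated by the test. TNFRSF10B ran from the combination and 8 h, not separated, through DMSO to 24 h. For FAS, DMSO, 8 h and 24 h were not separated from their neighbours, and the combination stood above. CASP8 had the combination and DMSO below 24 h and 8 h, without separation within either pair. For CASP9 the group at 8 h stood alone at the bottom, for TNFRSF10A the combination did, and for CFLAR and XIAP DMSO stood alone at the top. The steps nearest DMSO rest on calls lost in some alternatives, in 8 of 12 for CFLAR at 8 h and 4 of 12 for XIAP at 24 h. The step between 8 h and DMSO for TNFRSF10B, and that between 24 h and the combination for FAS, were each lost in 5 of 12.

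Levels of different genes were compared per kilobase of exon, in DMSO. By the union of GENCODE 29 exons, TNFRSF10B had 7.05 CPM per kilobase, XIAP 6.89, TNFSF10 5.18, CASP8 4.20, TNFRSF10A 4.01, CASP9 2.28, CFLAR 2.20 and FAS 0.0604. By the longest transcript instead, CASP8 (10.4) and TNFSF10 (9.21) came before TNFRSF10B (8.77) and XIAP (7.24), so the order at the top depends on the length used. FAS was the lowest by either length, at 0.1003 by the longest transcript.

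For each member the protein-coding genes with the most similar profile of log2 CPM over the 12 libraries were taken from 10608 genes of at least 5 CPM. The libraries share their groups, so a high correlation mostly reflects 4 group levels. TNFSF10 was closest to CTSH, a lysosomal protease (Pearson r = 0.994), and PBXIP1 (0.993), and CFLAR to the histone demethylase gene KDM5C (0.984) and FBXL18 (0.983). CASP8 was closest to AHSA1, a co-chaperone of HSP90, and PHKG2 (both 0.978), and TNFRSF10B to the nuclear receptor gene NR4A2 (0.969) and TUBE1 (0.965). XIAP was closest to WDFY3 (0.962) and TEAD1 (0.959), and TNFRSF10A to AGO2 (0.954) and STIM2 (0.950). The lowest best matches were those of FAS, with CAMLG (0.902) and MOSPD1 (0.901), and of CASP9, with ZNF211 (0.892) and SINHCAF (0.874).

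The surrounding pathway was covered by 56 further genes in 7 lists, of which 45 could be tested. At 8 h of docetaxel 16 were higher and 12 lower, at 24 h 11 were higher and 13 lower, and in the combination 10 were higher and 24 lower. That is 62.2%, 53.3% and 75.6% of those tested, beside 47.3%, 42.9% and 62.8% of all genes. By direction, 22.5%, 20.2% and 31.4% of all genes were called higher and 24.8%, 22.7% and 31.4% lower at 8 h, at 24 h and in the combination, the background of each list's counts. The pathway genes' median log2 fold changes were 0.07, 0.06 and -0.28. The 3 comparisons share the DMSO libraries.

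**Figure D4:**
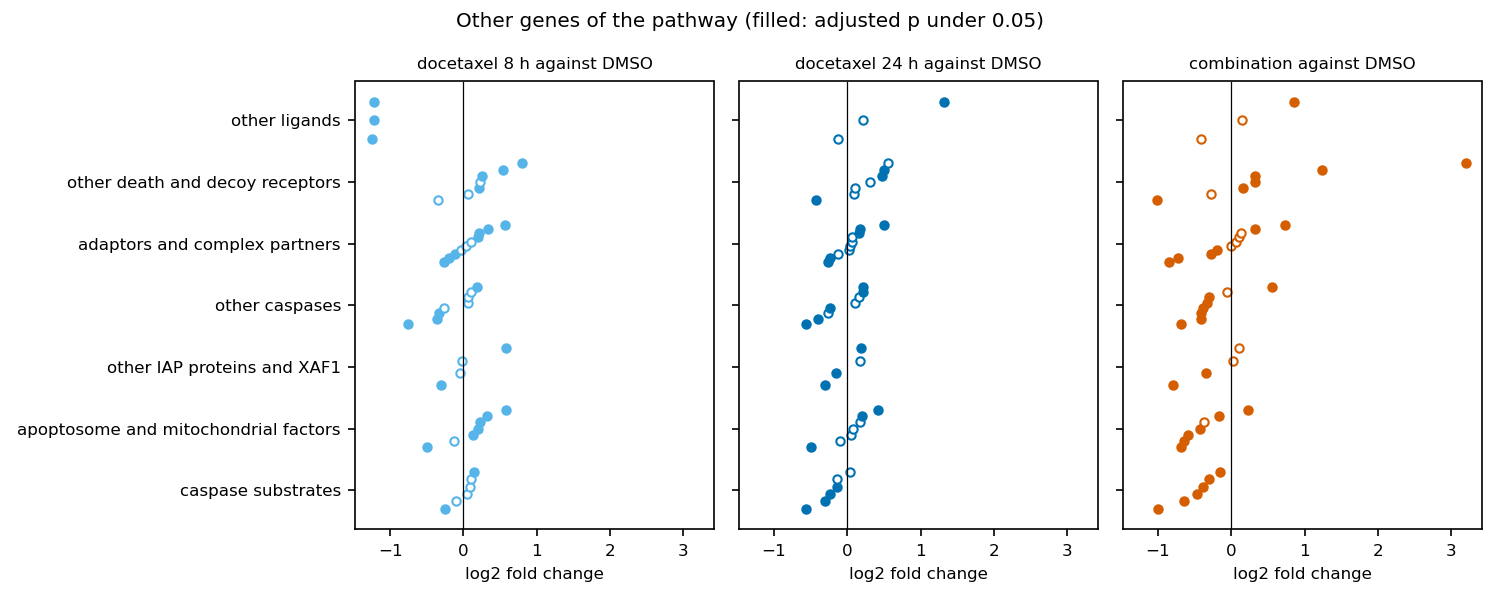
Log2 fold changes against DMSO (horizontal axes) of the 45 tested pathway genes, with a row per list and a panel per treated group. Each point is a gene, ordered within its list by value, and filled points passed an adjusted p under 0.05 in edgeR's quasi-likelihood test. The far right points in the combination are TNFRSF11B (3.20) and TNFRSF21 (1.24), and all 6 caspase substrates lie left of 0 there.

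Other ligands of the family were few and mostly low. All 3 that could be tested fell at 8 h of docetaxel, where 24.8% of all genes did. TNFSF15 (TL1A, the ligand of TNFRSF25) went from 12.1 ± 0.830 CPM (SD, n = 3) to 5.19 ± 0.573, a log2 fold change of -1.22 ± 0.10 (edgeR adjusted p = 1.35e-09). It did not pass at 24 h (-0.13) or in the combination (0.15). TNF had 0.480 CPM in DMSO, 0.197 at 8 h, 1.23 at 24 h and 0.363 in the combination. Its fall at 8 h (-1.25 ± 0.40, adjusted p = 0.0124) was lost without DMSO A or docetaxel 8 h C (adjusted p = 0.0696 and 0.0633), and its rise at 24 h (1.32 ± 0.30, adjusted p = 0.000908) held in every alternative. TNFSF12 (TWEAK) was under 1 CPM throughout, and its calls at 8 h (-1.22 ± 0.47, adjusted p = 0.0360) and in the combination (0.85 ± 0.37, adjusted p = 0.0487) were lost in 5 and 9 of 12 alternatives, among them most of those that left out a library.

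Among the 7 other death and decoy receptors tested, 4 rose and 0 fell at 8 h, 2 rose and 1 fell at 24 h, and 5 rose and 1 fell in the combination. Of all genes, 22.5%, 20.2% and 31.4% rose and 24.8%, 22.7% and 31.4% fell in these comparisons. TNFRSF12A, the receptor of TWEAK, rose in each group, by 0.80 ± 0.05, 0.47 ± 0.05 and 0.32 ± 0.05. TNFRSF21 (DR6) rose from 91.6 ± 3.84 CPM (SD, n = 3) in DMSO to 217 ± 12.6 in the combination (1.24 ± 0.06, edgeR adjusted p = 2.64e-14), and by 0.25 ± 0.06 at 8 h (adjusted p = 0.00155, and 0.246 with library totals). TNFRSF25 (DR3) rose by 0.54 ± 0.13, 0.50 ± 0.12 and 0.32 ± 0.13, of which the combination value was lost in 6 of 12 alternatives, among them those without DMSO B or C or without Combo A or B (adjusted p up to 0.128). The gene that fell at 24 h was EDAR, the ectodysplasin receptor (-0.43, adjusted p = 0.0392), which was lost in 6 alternatives (adjusted p up to 0.143). The gene that fell in the combination was NGFR, named after its values were seen, from 71 to 30 counts over the group (-1.01, adjusted p = 0.0203). TNFRSF1A, the main TNF receptor, rose by 0.22 ± 0.05 at 8 h (adjusted p = 0.00173, and 0.301 with library totals) and 0.16 ± 0.05 in the combination (adjusted p = 0.0113, and 0.0822 without the filter on low counts or 0.0519 without Combo A).

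Of 10 adaptors and partners tested, 4 rose and 3 fell at 8 h, 3 rose and 2 fell at 24 h, and 2 rose and 4 fell in the combination, where 31.4% of all genes rose and 31.4% fell. FADD, the adaptor between the receptors and caspase-8, had 29.9 ± 1.18 CPM (SD, n = 3) in DMSO, 30.8 ± 1.10 at 8 h, 25.4 ± 2.63 at 24 h and 26.1 ± 3.20 in the combination. Its falls of -0.24 ± 0.08 at 24 h (edgeR adjusted p = 0.0177) and -0.20 ± 0.08 in the combination (adjusted p = 0.0371) were lost without DMSO C or docetaxel 24 h C (adjusted p = 0.0933 and 0.143), and with DESeq2 or without any 1 of the DMSO libraries or Combo B (adjusted p up to 0.268). DEDD2, which carries a death effector domain, rose by 0.57 ± 0.05, 0.50 ± 0.05 and 0.74 ± 0.05. CASP8AP2 (FLASH), a partner of caspase-8 that also acts in histone mRNA processing, fell most in the combination, by a log2 value of -0.73 ± 0.09 (adjusted p = 3.37e-07). TRAF2, which recruits the IAP ubiquitin ligases, rose at 8 h (0.34 ± 0.06) and fell in the combination (-0.27 ± 0.06). TRADD, the adaptor of the TNF receptor, rose in each group (0.20, 0.16 and 0.33). Its 8 h call was lost with library totals (adjusted p = 0.595) and its 24 h call in 8 alternatives (adjusted p up to 0.191).

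Among other caspases, CASP2, an initiator linked to mitotic and genotoxic stress, fell in each group, by log2 values of -0.33 ± 0.06, -0.40 ± 0.06 and -0.68 ± 0.07. CASP14, the caspase of cornifying epidermis, had the highest CPM of all caspases listed here, with 809.6 in DMSO and 632, 549 and 645 in the treated groups.

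Of the 4 other IAP genes tested, 1 rose and 1 fell at 8 h, 1 rose and 2 fell at 24 h, and 0 rose and 2 fell in the combination, against 31.4% of all genes each way there. BIRC2 (cIAP1), a ubiquitin ligase of the TNF receptor complex, stood at -0.02, -0.16 ± 0.05 and 0.02, of which the 24 h value passed (edgeR adjusted p = 0.0181) but not without DMSO B, docetaxel 24 h A or docetaxel 24 h C (adjusted p = 0.112, 0.0612 and 0.0574). BIRC3 (cIAP2) fell in the combination, at -0.35 ± 0.08 (adjusted p = 0.000803), and did not pass with docetaxel. BIRC5 (survivin), which serves mitosis, rose by 0.58 ± 0.05 at 8 h and 0.19 ± 0.05 at 24 h. BIRC6, a very large IAP, fell in each group and most in the combination (-0.79 ± 0.07, adjusted p = 2.37e-09).

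All 7 apoptosome and mitochondrial genes could be tested, and 5 rose and 1 fell at 8 h, 2 rose and 1 fell at 24 h, and 1 rose and 5 fell in the combination. The shares of all genes that rose were 22.5%, 20.2% and 31.4%, and those that fell 24.8%, 22.7% and 31.4%. APAF1, the scaffold of the apoptosome, fell in each group, from 17.1 ± 0.968 CPM (SD, n = 3) in DMSO to 12.1 ± 2.23, 12.1 ± 1.10 and 11.4 ± 1.60, at log2 fold changes of -0.49 ± 0.11, -0.50 ± 0.11 and -0.59 ± 0.11. CYCS (cytochrome c) rose with docetaxel, by 0.58 ± 0.06 at 8 h and 0.42 ± 0.06 at 24 h. In the combination CYCS stood at -0.17 ± 0.06 (edgeR adjusted p = 0.0209), which was lost without DMSO A or B or Combo B or C (adjusted p = 0.0751, 0.0513, 0.0893 and 0.109). BID, which caspase-8 cleaves to link the pathways, rose by 0.23 ± 0.05 at 8 h (adjusted p = 0.00129, and 0.257 with library totals) and 0.20 ± 0.05 at 24 h, and fell by 0.43 on the log2 scale in the combination (a value of -0.43 ± 0.05, adjusted p = 3.41e-07). HTRA2, a protease that also antagonises XIAP and was named after its values were seen, was the gene that rose in the combination (0.23, adjusted p = 0.00891). AIFM1 and ENDOG, mitochondrial proteins released in cell death, fell in the combination, at -0.69 ± 0.05 and -0.64 ± 0.07. AIFM1 was among the 5 that rose at 8 h (0.13, edgeR adjusted p = 0.0336), a call lost in 5 of 12 alternatives: with library totals, where it was -0.03, without the filter on low counts, and without DMSO B, docetaxel 8 h A or docetaxel 8 h C (adjusted p from 0.0534 to 0.625). DIABLO, which antagonises XIAP, did not pass in any comparison with DMSO (-0.13, 0.18 and -0.37). Without Combo B it fell in the combination (-0.65, adjusted p = 0.0143). These values cover only the first entry of DIABLO, a repeated symbol. In the annotation its entries overlap on the same strand, so reads may have been split between them or left uncounted. That was not tested, so the values may not stand for DIABLO as a whole.

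All 6 caspase substrates tested fell in the combination, against 0 rising and 4 falling at 24 h and 1 each way at 8 h. Of all genes, 31.4% fell in the combination and 22.7% at 24 h. LMNB1 (lamin B1) had 318 ± 9.87 CPM (SD, n = 3) in DMSO, 350 ± 14.0 at 8 h, 258 ± 4.43 at 24 h and 159 ± 7.12 in the combination, where the log2 fold change was -1.00 ± 0.05 (edgeR adjusted p = 4.16e-14). Its rise at 8 h (0.14, adjusted p = 0.0240) was lost in 4 of 12 alternatives: with library totals, where it was -0.02 (adjusted p = 0.776), without the filter on low counts (0.0737), and without docetaxel 8 h B or C (0.0639 and 0.117). PARP1, a DNA repair enzyme that caspases cleave, fell at 24 h (-0.56 ± 0.05, adjusted p = 5.50e-09) and in the combination (-0.65 ± 0.05, adjusted p = 3.08e-11). DFFA, the inhibitor of the caspase-activated nuclease, fell in the combination by a log2 value of -0.39 ± 0.05. Its fall at 24 h (-0.14 ± 0.05, adjusted p = 0.0261) was lost without DMSO A, DMSO B or docetaxel 24 h C (adjusted p = 0.0656, 0.193 and 0.105). ROCK1, the kinase whose cleavage drives blebbing, lay at -0.25 ± 0.07, -0.24 ± 0.07 and -0.31 ± 0.07, of which the 8 h call was lost without DMSO B or docetaxel 8 h A (adjusted p = 0.0669 and 0.0784) and the 24 h call without DMSO B or docetaxel 24 h C (adjusted p = 0.0664 and 0.0654).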

How the data were processed

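RNA of 12 libraries was counted per gene. The deposited values are whole-number read counts per gene symbol, which the authors made from poly(A)-selected RNA, per the labels' protocols. Per the submitters' processing notes the tools included fastp, HISAT2 2.0.5 and DESeq2, with build hg38. Which program counted the reads, with which annotation and strand, is not given in the sources used here, so reads of overlapping genes may be shared. Of the 58735 entries 1568 repeat an earlier symbol, and for DIABLO, a repeated symbol, the first entry was used. A further table with 12 columns of scaled values was not used.

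All 12 libraries entered 1 edgeR 4.0.16 model (R 4.3.3) of group means (8 residual degrees of freedom), TMM factors (0.917 to 1.05) and filterByExpr with a minimum count of 10, which kept 17780 genes. The quasi-likelihood test was two-sided with Benjamini-Hochberg adjustment over all of these, a call being an adjusted p under 0.05, in 6 comparisons. The ± beside a log2 fold change is an approximate SE, the change divided by the square root of F. CPM carry the SD over 3 libraries. No marking of PCR copies is described, so counting limits cover counting error only.

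The members, lists and tests were chosen with earlier results of these data known. Named genes were the members, CASP10, FADD, TNFRSF10C, TNFRSF10D, BIRC2, BIRC3, APAF1, DIABLO, TNFRSF1A, up to 3 called genes with the smallest adjusted p per list and comparison with DMSO, and the 2 best-correlated genes per member (prior count 2); some genes of the rule are not reported here. Alternatives were DESeq2 size factors, library totals, no filter, DESeq2 1.42.0's Wald test, a replicate block, a fit of the 6 libraries compared, and leaving out each library. Coordinates and exon lengths are from GENCODE 29 (GRCh38).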

Additional observations from a re-analysis of the deposited data

Results flagged for a closer look

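The level with docetaxel differed between the 2 exposure times for 3 of the 8 genes. This was tested directly between the 8 h and 24 h libraries, with edgeR's quasi-likelihood test and Benjamini-Hochberg adjustment. Of all genes tested, 34.9% were called in this comparison (16.6% upward, 18.3% downward), a share close to the 37.5% of the members. The log2 difference, 24 h minus 8 h, was 0.47 for TNFRSF10B (adjusted p = 9.69e-07), 0.55 for TNFSF10 (adjusted p = 4.74e-05) and 0.44 for CASP9 (adjusted p = 0.00101). In each, every 24 h library lay above every 8 h library. The share of all genes with such a separation was not counted. TNFRSF10B was below DMSO at 8 h and above it at 24 h, whereas TNFSF10 and CASP9 were below DMSO at 8 h and did not pass the test against it at 24 h. No DMSO library was labelled as collected at 8 h or at 24 h. The time since dosing and the drug therefore cannot be told apart, either in the comparisons with DMSO or between the docetaxel times.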

How the results depend on the processing

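Over 48 values of the members (8 genes in 6 comparisons) and 12 alternatives each, 527 of 576 kept direction and side of the threshold, 24 lost a call, 3 gained one and 22 changed sign. For the named pathway genes these were 1155, 80, 9 and 16 of 1260. The number of members called stayed within 1.5 times the main count in each alternative. Deviations from the group means of 18 same-letter pairs correlated between -0.134 and 0.143, 1 of them over 0.1, and in 5 pairs the own letter correlated best. With 3 libraries per group, these values cannot show whether a letter marks a shared culture or day. With a replicate block the members called numbered 6, 4, 6, 3, 5 and 5, the same as without it. Library totals moved the median of all genes at 8 h from -0.02 to -0.18.

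Of the values that changed sign, only those of LMNB1 (0.14) and AIFM1 (0.13) at 8 h had passed the threshold, and none passed after the change; where the setting is not library totals, the cause was not tested. With library totals the 8 h log2 fold changes became -0.030 for TNFRSF10A, -0.11 for FADD, -0.019 for LMNB1, -0.046 for MLKL, -0.091 for CASP4, -0.028 for AIFM1 and -0.049 for DFFA. Between the docetaxel times they became 0.12 for TNFRSF10A, 0.068 for CASP8 and 0.061 for CFLAR. For the combination against docetaxel at 8 h they became 0.094 for TNFRSF10B, 0.0049 for CFLAR and 0.11 for XIAP, and against DMSO -0.013 for BIRC2. BIRC2 stood at -0.014 without the filter. CASP9 in the combination was 0.0085 with DESeq2 size factors, 2.51e-05 with DESeq2 and 0.0047 in the fit of 6 libraries, in which XIAP against docetaxel at 8 h was 0.0056. Leaving out each library gave at 8 h -0.084 to 0.684 for FAS, -0.057 to 0.025 for BIRC2 and -0.100 to 0.014 for BIRC3. At 24 h it gave -0.031 to 0.299 for DIABLO, -0.154 to 0.555 for TNFSF12 and -0.0088 to 0.094 for MLKL. In the combination it gave -0.086 to 0.089 for CASP9 and -0.010 to 0.053 for BIRC2. Between the docetaxel times TNFRSF10A ran from -0.104 to 0.104. The combination ran from -0.149 to 0.026 against docetaxel at 24 h for CASP9, and against 8 h from -0.056 to 0.017 for TNFRSF10B and from -0.074 to 0.073 for XIAP.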

Other observations

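The genes of necroptosis, the caspase-independent death that follows when caspase-8 is blocked, were incomplete in these libraries. RIPK3, named here after its values were seen, had 1, 0, 0 and 2 counts over the 3 libraries of DMSO, docetaxel at 8 h, docetaxel at 24 h and the combination. RIPK1, also chosen after its values were seen, had 45.8, 45.0, 46.5 and 49.4 CPM in the same order and passed no comparison with DMSO. MLKL, the membrane-permeabilising effector, had 14.3 ± 0.884 CPM (SD, n = 3) in DMSO, 15.4 ± 1.16 at 8 h, 14.6 ± 0.926 at 24 h and 7.95 ± 0.300 in the combination. Its log2 fold change in the combination was -0.85 ± 0.09 (adjusted p = 1.23e-08 by edgeR's quasi-likelihood test), and the combination libraries lay below all others.

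Inflammatory caspases moved in different directions in the combination. CASP4, which senses intracellular lipopolysaccharide, went from 25.7 ± 0.480 CPM (SD, n = 3) in DMSO to 37.9 ± 2.25 (log2 fold change 0.56 ± 0.07, edgeR adjusted p = 1.92e-07). CASP1, named after its values were seen, went from 5.12 to 4.12 CPM (-0.31 ± 0.12, edgeR adjusted p = 0.0274).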
